A study of Homo sapiens with 8 samples.

Results

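The HOX clusters A, B, C and D were examined in the H3K27Ac enhancer tables of 4 human medulloblastoma (MB) cell lines. The members were 38 HOX genes of the 20018 protein-coding genes in GENCODE 44, with 10 in cluster A, 10 in cluster B, 9 in cluster C and 9 in cluster D. A deposited enhancer region was assigned to a member when it overlapped the gene body or lay within 50 kb of the start site, in GRCh38. By this rule 41 of the 88550 regions of the 4 lines belonged to the clusters, with 8 of 26072 in MB002, 16 of 26317 in D425, 1 of 15286 in HD-MB03 and 16 of 20875 in UW228.

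MB002, D425 and HD-MB03 (HDMB03 in the labels) were lines of the Group 3 subtype (G3-MB), and UW228 was labelled as SHH subtype and served as the line outside G3-MB. For each line there was 1 library of H3K27Ac and 1 of input, no treatment was given in the labels, and there were no replicates. All comparisons below are therefore descriptions of these libraries, with no error and no test. The tables of the 3 G3-MB lines carried 1 header date and that of UW228 a later one, so the subtype and the date of the table cannot be told apart. Signal is the H3K27Ac value of a region minus its input value, floored at 0, in mapped reads per bp, scaled by the authors to the size of the library (rpm/bp) and multiplied by the length in bp. Rank 1 is the region of highest signal of a line, and the deposited super-enhancer (SE) call covered 363, 431, 302 and 753 regions of MB002, D425, HD-MB03 and UW228. The depth of the libraries is unknown.

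HOX genes encode homeodomain transcription factors that lie side by side in 4 clusters, each named by a letter, and genes with the same number in different clusters are paralogs. Along a cluster the low numbers are active early and towards the head, in the hindbrain, and the high numbers late and towards the tail and the limb ends, an order known as collinearity. The midbrain and the most anterior hindbrain form without HOX expression, and silent clusters are typically covered by Polycomb repression. H3K27Ac marks active promoters and enhancers.

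The HOX region of highest signal in the series, in MB002, lay over *EVX2*, a homeobox gene at the edge of cluster D, and a further MB002 region of lower signal covered its neighbour *HOXD13*, which specifies digits and the tail end of the axis. Both promoters lay inside unstitched peaks of MB002. They are shown from RefSeq (GRCh38.p14), with 250 bases before and 50 after the start, with CpG in capitals, since CpG density is described below. The *HOXD13* promoter was chr2:176092471-176092770 on the plus strand, and the *EVX2* promoter was chr2:176083913-176084212 on the minus strand.
HOXD13: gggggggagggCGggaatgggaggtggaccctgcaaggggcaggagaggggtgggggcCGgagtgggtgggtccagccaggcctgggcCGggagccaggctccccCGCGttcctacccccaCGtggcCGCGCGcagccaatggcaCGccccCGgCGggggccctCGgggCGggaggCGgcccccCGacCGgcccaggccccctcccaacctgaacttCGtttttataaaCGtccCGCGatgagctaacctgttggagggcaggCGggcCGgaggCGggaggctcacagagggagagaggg
EVX2: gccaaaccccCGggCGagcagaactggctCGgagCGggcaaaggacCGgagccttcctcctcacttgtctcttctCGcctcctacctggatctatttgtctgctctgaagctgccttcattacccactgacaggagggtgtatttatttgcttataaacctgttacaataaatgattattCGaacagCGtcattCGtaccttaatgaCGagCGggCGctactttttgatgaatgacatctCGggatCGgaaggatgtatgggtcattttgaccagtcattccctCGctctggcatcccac
The *HOXD13* window held 24 CpG and that of *EVX2* 15, against a median of 14 over the 35116 RefSeq promoters in the table. More CpG were present in 32.0% of those promoters than in *HOXD13* and in 47.5% than in *EVX2*.

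The third sequence is the stretch of *HOXC4* that was called in both D425 and HD-MB03, at chr12:54019243-54019499 of GRCh38, plus strand. It lies in introns of *HOXC4* and *HOXC6*, is 257 bp long, and held 21 CpG, in capitals.
HOXC4 intron: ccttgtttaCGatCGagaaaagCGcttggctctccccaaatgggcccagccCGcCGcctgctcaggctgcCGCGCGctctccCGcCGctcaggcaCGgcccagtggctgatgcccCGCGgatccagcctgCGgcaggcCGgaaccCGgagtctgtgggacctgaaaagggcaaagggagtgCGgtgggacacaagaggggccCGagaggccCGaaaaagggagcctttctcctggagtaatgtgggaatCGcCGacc

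The clusters also encode microRNAs. *MIR196A2* lay inside the best-ranked HOXC region of UW228, while *MIR196B*, in cluster A, lay inside no region of any line. Their mature forms share the seed, bases 2 to 8, shown in capitals from RefSeq.
hsa-miR-196a-5p: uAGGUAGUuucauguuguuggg
hsa-miR-196b-5p: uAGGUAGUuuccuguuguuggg
*MIR196A2* was at chr12:53991762-53991783 on the plus strand and *MIR196B* at chr7:27169528-27169549 on the minus strand, as mature positions. A further copy of miR-196a-5p, *MIR196A1* in cluster B, was inside no region either.

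Few HOX genes had H3K27Ac regions in MB002 and HD-MB03, and most had one in D425 and UW228. In MB002 13 of 38 members had a region, against 70.7% of all protein-coding genes by the same rule. In HD-MB03 it was 7 of 38, against 58.2%. In D425 28 of 38 members had a region, beside a background of 72.9%, and in UW228 27 of 38, beside 61.8%. The members of a cluster share regions and are not independent, so these counts stand for 8, 16, 1 and 16 regions. SE-associated members were seen in MB002, where 7 of 38 had an SE against 3.35% of all genes, and all 7 shared 1 region. The count was 4 with a window of 25 kb and 0 on GENCODE gene bodies. No member had an SE in D425, HD-MB03 or UW228, where the background was 4.34%, 3.11% and 4.99%. This count rested on the order by summed signal without correction for the input level: it was 6 in D425 when regions were ordered by mean signal per bp, and 2 in UW228 after division by the relative input of the region or by that within 500 kb.

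**Figure D1:**
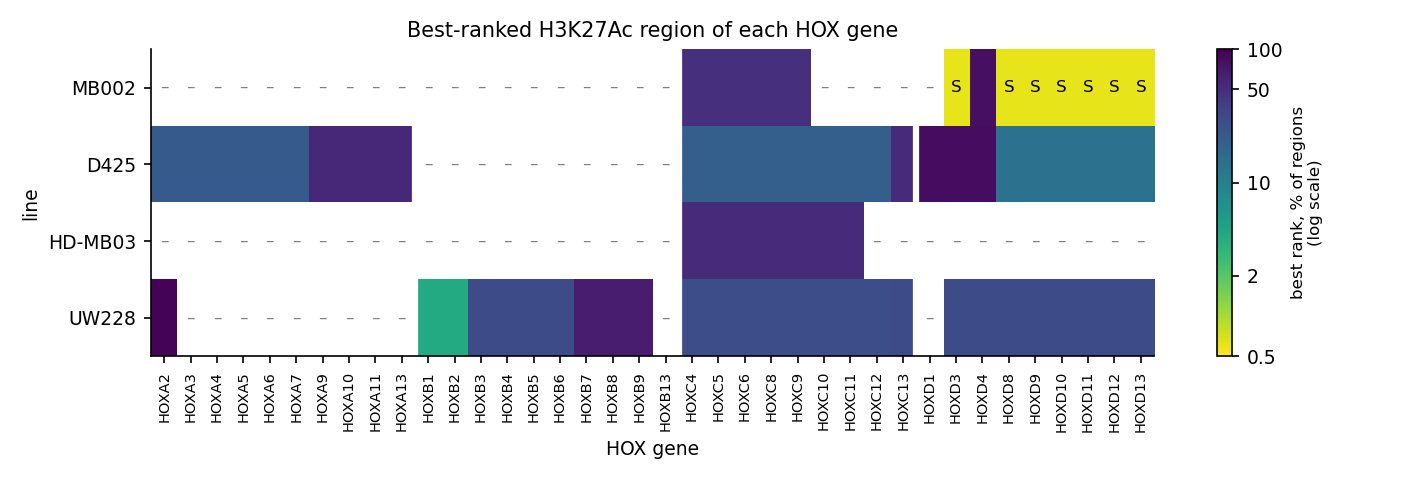
Best rank of the regions of each HOX gene, in percent of the regions of the line (colour, log scale; yellow is the strongest), for 38 genes in 4 lines. A dash marks a gene with no region and S an SE. The S marks stand on 7 HOXD genes of MB002, and cluster B is filled in UW228 only.

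The counts on gene bodies alone are part of those by the 50 kb rule and cannot exceed them. A region overlapped the body of 8 members in both UW228 and D425, of 3 in MB002 and of 2 in HD-MB03, beside 34.3%, 40.4%, 40.5% and 32.3% of all protein-coding genes. Overlap with a gene body depends on its length, which was not matched here, so members and all genes are not compared like for like. A region lay over the start site of 3 members in both UW228 and D425, of 1 in MB002 and of none in HD-MB03, beside 5.70%, 7.31%, 8.12% and 6.18% of all genes. The deposited regions were called outside promoters by the study's methods, yet 6 of the 41 covered a GENCODE start site of a member. *HOXC4* was the member whose body was touched in all 4 lines, and *HOXC6* was touched in 3. A region touched *HOXC9*, *HOXC10* and *HOXD11* in 2 lines each and 8 further members in 1 line, and 25 members had none on the body. With the gene bodies of RefSeq in place of GENCODE the counts were 8, 6, 2 and 3 in the same order.

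Of the members, 5 had a region in all 4 lines by the 50 kb rule, namely *HOXC4*, *HOXC5*, *HOXC6*, *HOXC8* and *HOXC9*. A further 10 had one in 3 lines (*HOXC10*, *HOXC11*, *HOXD3*, *HOXD4* and *HOXD8* to *HOXD13*), 3 in 2 lines (*HOXA2*, *HOXC12*, *HOXC13*) and 19 in 1 line. *HOXB13*, a posterior gene that lies apart from the rest of its cluster, had no region in any line. The share of all protein-coding genes by number of lines was not computed, while per line it was 58.2% to 72.9%. The 5 genes with a region in all 4 lines rested on 1 region in MB002 and 1 in HD-MB03, which did not overlap.

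**Figure D2:**
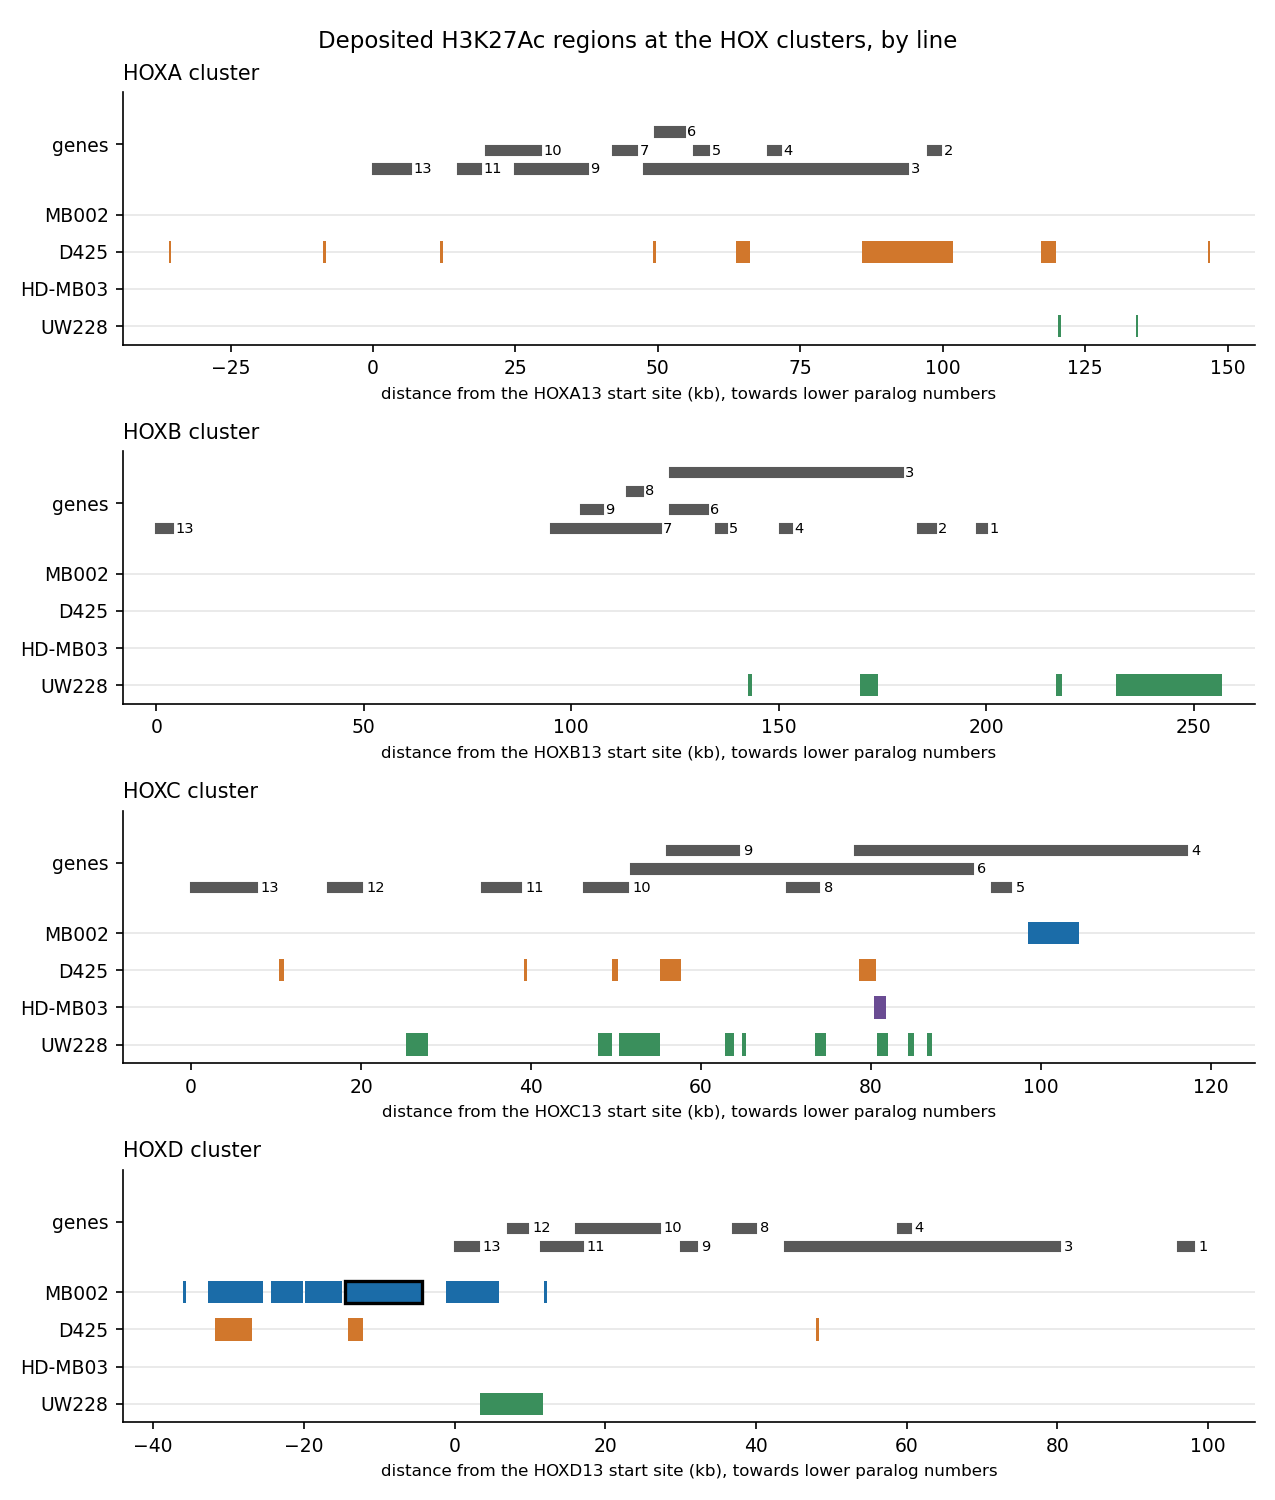
Position of the deposited H3K27Ac regions (coloured boxes, 1 row per line) along clusters A, B, C and D, with gene bodies in grey labelled by paralog number. The x axis is the distance in kb from the start site of the gene of group 13. The box with a black edge is the SE. The MB002 regions of cluster D lie on its *HOXD13* side and those of UW228 in cluster B towards and beyond *HOXB1*.

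Cluster D had the best-ranked HOX region of MB002 and of D425, on its *HOXD13* side in both, but not of UW228, whose best ranks were in clusters B and C, and HD-MB03 had none there. In D425 this order turned after division by the relative input of each region, with cluster C at 2872 and cluster D at 6323, and held after division by the input within 500 kb, at 5044 and 4337. In MB002 7 regions covered 34442 bp with a summed signal of 104941, which was 99.1% of the HOX signal of that line. D425 had 3 regions, 7259 bp and a signal of 9861, and UW228 had 1 region, 8392 bp and a signal of 4173. The best rank was 158 in MB002, 3589 in D425 and 6214 in UW228. Per bp the cluster signal was 3.05 in MB002, 1.36 in D425 and 0.497 in UW228, all in rpm/bp.

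The MB002 SE was chr2:176078149-176088426, 10277 bp long, with a signal of 49868 and 4.85 per bp. It held 1 peak, and this peak was number 9 in length among the 12609 regions of MB002 that consisted of 1 peak. By mean signal per bp the region ranked 43 in the line. Its H3K27Ac value was 30.8 times its input value, beside a median of 5.10 over all regions of MB002, and its signal was 1.54 times the deposited cutoff of 32353. It covered the start and exons of *EVX2* and ended 4295 bp before the GENCODE start of *HOXD13*. RefSeq places the outer start of *HOXD13* further upstream, at position 176087487, inside the SE, so the overlap of the SE with *HOXD13* depends on the gene model.

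The 7 SE-associated members were *HOXD3*, *HOXD8*, *HOXD9*, *HOXD10*, *HOXD11*, *HOXD12* and *HOXD13*. *HOXD13* was nearest, and *HOXD3*, a more anterior gene that patterns the cervical vertebrae, was farthest, at 48186 bp and close to the limit of 50 kb. With the start sites of RefSeq, which place that of *HOXD3* farther away, 6 members were SE-associated. *HOXD4*, its neighbour, had the rank 20910 region of MB002 as its best, and *HOXD1*, the most anterior gene of the cluster, had none in that line. The 5 genes of groups 9 to 13 in this cluster, which pattern the trunk end and the limbs, were all SE-associated, at 4295 to 34293 bp.

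The SE stood in a row of regions. Beyond it, away from the cluster, lay regions of ranks 1138, 4822, 847 and 25248, at chr2:176072816-176077782, chr2:176068421-176072572, chr2:176059971-176067343 and chr2:176056738-176056947. On the cluster side lay the region of rank 1312, chr2:176091570-176098633, which was a peak over the whole GENCODE body of *HOXD13*, and the region of rank 20910, chr2:176104640-176105044, in a GENCODE intron of *HOXD11*. The first 3 of the outer regions and the *HOXD13* region had a signal of 3.25, 1.05, 2.68 and 2.06 per bp, beside a line median of 0.534. By GENCODE positions, regions that touched the stretch from the first to the last HOX member held 14.8% of the HOX signal of MB002. With the RefSeq start of *HOXD13* the SE touched this stretch too, and it held 47.5% of the signal of cluster D. The share inside the gene array thus depends on the gene model. The next region out, chr2:175996298-176039694, was 53027 bp from *HOXD13* and fell just outside the rule; it had rank 508 and a signal of 26810, and was the best region of *LNPK*.

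The regions of this row were separate entries in the deposited table although the gaps between them were 3023, 1077, 243, 366, 3143 and 6006 bp, all within the stitching distance of 12.5 kb that the methods give. Gaps of up to that size made up 1.97% of the gaps between neighbouring regions of MB002. Joined across them, the row spanned 48306 bp with a signal of 104941 and ranked 27 of 25559 regions.

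D425 shared parts of this row at lower signal. Its best HOX region, chr2:176078536-176080631, lay wholly inside the MB002 SE over *EVX2*, with rank 3589, a signal of 5445 and 2.60 per bp, which ranked 302 in the line by mean signal. MB002 had 1.87 times that signal per bp over its whole SE. A further D425 region, chr2:176060915-176065887, lay wholly inside the MB002 region of rank 847 and had rank 4418 and 0.862 per bp. The last D425 region, chr2:176140712-176140904, of 192 bp and rank 21993, lay in an intron of *HOXD3*. The input of the D425 regions in cluster D was 1.94 to 2.04 times the line median per bp, and after division by it the signal of the cluster in D425 was 5013 in place of 9861. In UW228 the region chr2:176096075-176104467, of 2 stitched peaks, spanned the GENCODE starts of *HOXD12* and *HOXD11* and shared 2559 bp with the MB002 region over *HOXD13*. RefSeq starts *HOXD11* at position 176107280, beyond the region, and 3223 of its 8392 bp were peaks, so whether the start sites themselves were marked cannot be read from the table. Its signal was 4173, or 0.497 per bp, below the line median of 0.650.

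Cluster B had regions in UW228 only. There 4 regions covered 32535 bp with a signal of 29357, the largest cluster sum of that line, and they gave 9 of 10 members a region. The strongest, chr17:48472035-48497514, had 6 stitched peaks, a signal of 23306 and rank 826. This was 95.3% of the deposited cutoff of 24467, so the region was not called an SE, while after either division by the input level it passed the recomputed cutoff. It lay 33497 bp from *HOXB1*, the hindbrain gene at the anterior end, within reach of *HOXB1* and *HOXB2* alone, and was also the best region of *SKAP1*, which encodes a T cell adaptor, on that side of the cluster. It held 79.4% of the signal of the cluster. The region chr17:48554772-48559259, rank 6078, lay on *HOXB3* and was the best of *HOXB3*, *HOXB4*, *HOXB5* and *HOXB6*. The region chr17:48585095-48586260, rank 13762, also on *HOXB3*, was the best of *HOXB7*, *HOXB8* and *HOXB9*. The fourth, chr17:48510591-48511995, had rank 13123. No region of cluster B was present in MB002, D425 or HD-MB03, and the nearest ones within 100 kb were on the *HOXB13* side, 97635 bp away in MB002 and 67305 bp in D425.

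**Figure D3:**
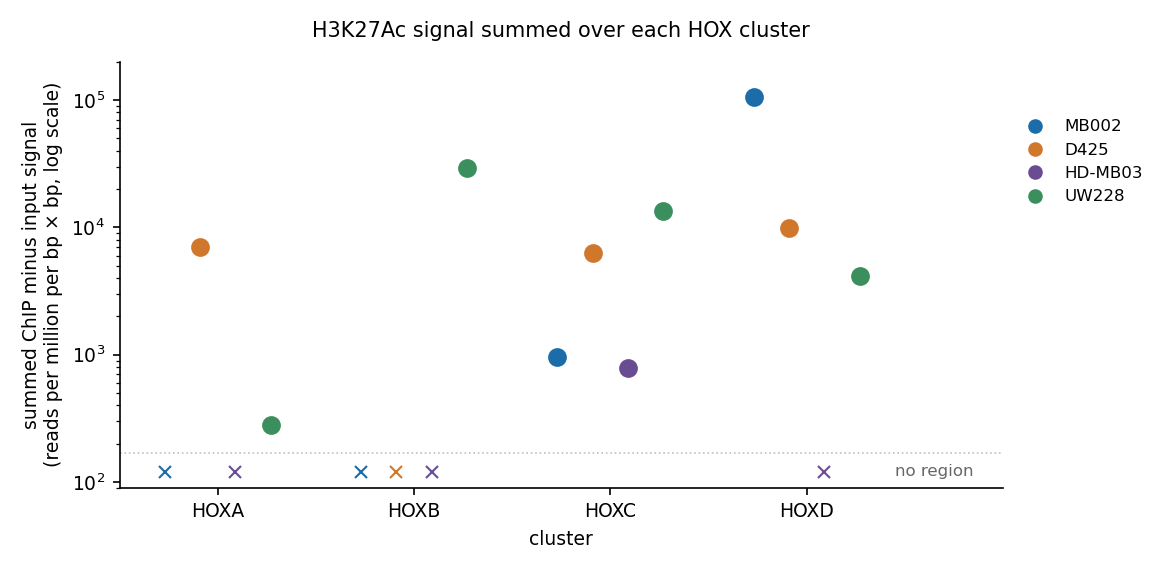
Summed H3K27Ac minus input signal of each cluster in each line (log axis, 1 point per line, no replicates). Crosses below the dotted line mark clusters with no region. MB002 has the highest point, in HOXD at 104941, and UW228 has the only point in HOXB, at 29357.

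Cluster C was marked in every line, and no line had an SE there. UW228 had 9 regions with 14388 bp and a signal of 13375, D425 5 regions with 6237 bp and 6283, MB002 1 region with 6012 bp and 958, and HD-MB03 1 region with 1428 bp and 783. The best rank was 5986 in UW228, 5250 in D425, 12639 in MB002 and 7913 in HD-MB03. After division by the relative input of each region the signal was 26496 in UW228, with a best rank of 3065, and 10602 in D425, with a best rank of 2872. With regions joined across the stitching distance the best rank was 3000 in UW228 and 4160 in D425, which turned the order of these lines. The order also turned after division by the input within 500 kb, at 4936 and 5044, and by mean signal per bp, at 866 and 1449. All 9 members had a region in UW228 and D425, 7 in HD-MB03 and 5 in MB002.

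The best HOXC region of UW228, chr12:53989233-53994063, was a peak of 0.911 per bp that spanned the end of *HOXC10*, the GENCODE start of *HOXC6* and *MIR196A2*. RefSeq starts *HOXC6* at position 54016888, beyond this region. The next, chr12:53964147-53966663, had rank 6207 and the highest signal per bp of the cluster in that line, at 1.66. It lay on exons of *HOTAIR*, a long noncoding RNA gene transcribed antisense to the HOXC genes. The other 7 had ranks of 11861 to 18737 and lay between *HOXC10* and the introns of *HOXC4*. Of the 8 gaps between these 9 regions 7 were within 12.5 kb, and the smallest was 890 bp.

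In D425 the best region, chr12:53994022-53996470, lay over the GENCODE start of *HOXC9* and shared 42 bp with the UW228 region next to it. With the RefSeq model of *HOXC9* it did not overlap the gene. Its signal was 3463, at 1.41 per bp, beside 0.516 as the line median. The second, chr12:54017442-54019499, had rank 9131 and began 511 bp inside *HOXC4*. The other D425 regions had ranks 14114, 16152 and 17511, on *HOXC10*, beside *HOXC11* and between *HOXC12* and *HOXC13*.

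The single HOX region of HD-MB03, chr12:54019243-54020671, lay 2312 bp from the start of *HOXC4*. It overlapped the D425 region by the 257 bp printed above. It shared 1140 bp with the UW228 region chr12:54019532-54020919, which was 79.8% and 82.1% of the lengths. Its H3K27Ac value was 4.70 times its input, below the line median of 5.65, and its signal per bp was 0.548 beside a median of 0.509. MB002 was marked elsewhere in *HOXC4*, at chr12:54037368-54043380. There 3 peaks with 1514 bp in all were stitched over 6012 bp, and the mean signal was 0.159 per bp, beside the line median of 0.534.

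Cluster A had regions in D425 and, at its *HOXA2* end, in UW228. D425 had 8 regions, 23069 bp and a signal of 7050, at 0.306 per bp, and all 10 members had a region. The best, chr7:27098282-27114228, rank 5869, spanned *HOXA2*, a hindbrain and neural crest gene, the 3′ end of *HOXA3* and the noncoding *HOTAIRM1*. Only 2000 bp of its 15946 bp were peaks, so whether the *HOXA2* start itself was marked cannot be read from the table. The region chr7:27080184-27082884, rank 7341, lay beyond *HOXA2*. The region chr7:27150376-27150923, a peak of 1.04 per bp and rank 14420, covered the GENCODE start of *HOXA6* and was the best of *HOXA9*, *HOXA10*, *HOXA11* and *HOXA13*. The RefSeq model of *HOXA6* ends at position 27147774 and was not overlapped. The other 5 had ranks of 15448 to 23239. UW228 had 2 regions of 283 and 415 bp with ranks 19761 and 19860 and a summed signal of 283, both within reach of *HOXA2* alone. MB002 and HD-MB03 had none.

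By paralog number the 38 members comprised 11 of groups 1 to 4, 11 of groups 5 to 8 and 16 of groups 9 to 13. In MB002 3, 4 and 6 of these had a region and 1, 1 and 5 an SE. In D425 7, 7 and 14 had a region, in UW228 8, 8 and 11, and in HD-MB03 1, 3 and 3. Over all protein-coding genes the shares with a region were 70.7% for MB002, 72.9% for D425, 61.8% for UW228 and 58.2% for HD-MB03, and 3.35% had an SE in MB002. Over the members with a region, the median best rank was at 0.606% of the regions of MB002, 21.1% for D425, 51.8% for HD-MB03 and 29.1% for UW228. Over all genes with a region it was 25.8%, 23.5%, 26.6% and 32.8%. The value of MB002 reflects the 1 SE that 7 members shared.

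The HOX regions took 0.112% of the signal of all regions of MB002, 0.0291% for D425, 0.00161% for HD-MB03 and 0.0450% for UW228. Their shares of the covered length were 0.0254%, 0.0233%, 0.00171% and 0.0375%. The median signal per bp of the HOX regions was 1.56, 0.748, 0.548 and 0.70, beside 0.534, 0.516, 0.509 and 0.650 over all regions, and 5 of 8, 13 of 16, 1 of 1 and 10 of 16 were above the line median. Of the 41 regions 32 consisted of 1 peak. These were 7 of 8 in MB002, 12 of 16 in D425, 1 of 1 in HD-MB03 and 12 of 16 in UW228. Over all regions of these lines they were 12609 of 26072, 12920 of 26317, 9515 of 15286 and 10444 of 20875. Of the 41 regions 13 overlapped no annotated gene, and 13 overlapped a region of another line. The shares of all regions for these last counts were not computed. Overlaps between D425 and UW228 in cluster C were as short as 11 and 42 bp. The largest shared stretch was of 4973 bp, between MB002 and D425 in cluster D, beyond *EVX2* from the HOX genes.

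**Figure D4:**
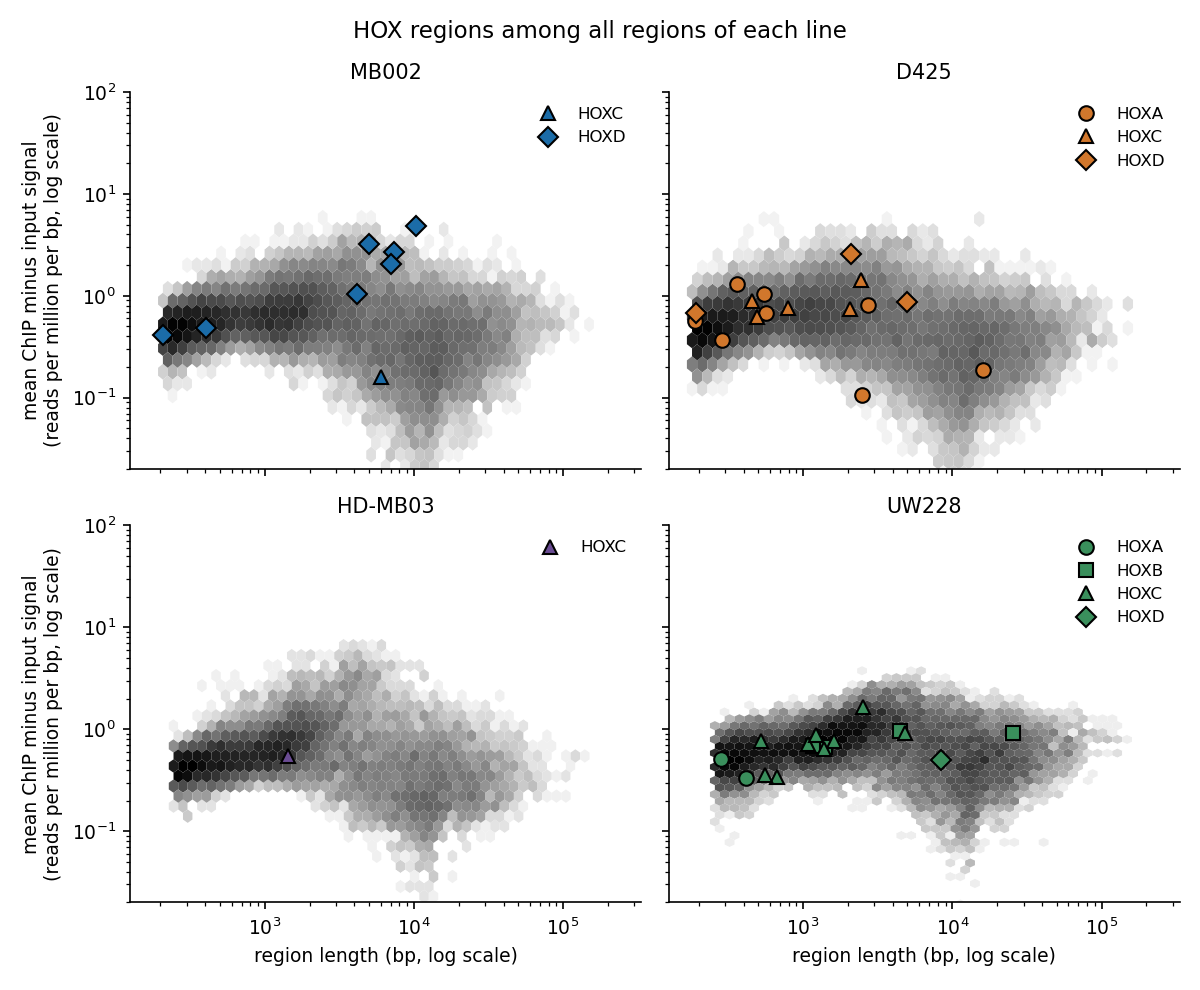
Length against mean H3K27Ac minus input signal per bp (both log axes) for all regions of a line with signal above 0 (grey, darker where more regions fall) and for the HOX regions (coloured marks). Values below the foot of the axis are not drawn. The MB002 HOXD regions reach 4.85 per bp at the top edge of the grey cloud, and the other HOX regions lie within it.

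In base composition the HOX regions were richer in CpG than most regions of their lines. The median number of CpG per 100 bp was 2.3 for MB002, 2.82 for D425, 3.22 for HD-MB03 and 1.46 for UW228, beside 0.957, 1.08, 1.20 and 0.846 over all regions. Above the line median were 7 of 8, 10 of 16, 1 of 1 and 13 of 16. The SE of MB002 had 5.64 CpG per 100 bp and the D425 region inside it had 7.40. The D425 regions of *HOXC9* and *HOXC4* had 6.08 and 5.35. Some HOX regions had few: the UW228 region of rank 19761 beyond *HOXA2* had none, and the D425 region on *HOXC10* had 0.379 per 100 bp. Of the members, 20 had promoters in the RefSeq table, 27 promoters in all, with a median of 22 CpG beside 14 over all promoters.

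A large part of each cluster lay near start sites, where the study's methods took regions out. The share of the stretch from the first to the last member within 2.5 kb of a protein-coding start site was 44.5% in cluster A, 24.1% in B, 36.1% in C and 42.0% in D. Of that stretch, deposited regions covered 17.2% of cluster A, 5.32% of cluster C and 0.196% of cluster D in D425. In UW228 they covered 2.82% of cluster B, 12.3% of C, 8.55% of D and none of A, in MB002 5.13% of C and 6.43% of D, and in HD-MB03 1.22% of C. A member without a region was thus not shown to lack H3K27Ac at its promoter.

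Genes that act with or upstream of HOX genes were counted by the same rule, beside shares of all protein-coding genes of 70.7%, 72.9%, 58.2% and 61.8% with a region and 3.35%, 4.34%, 3.11% and 4.99% with an SE in MB002, D425, HD-MB03 and UW228. Of 9 TALE cofactors, homeodomain partners of HOX proteins, 8, 8, 8 and 6 had a region in MB002, D425, HD-MB03 and UW228, and *MEIS1* had an SE in D425 (rank 388). Of 9 activators of HOX transcription, among them CDX factors and retinoic acid receptors, 5, 7, 4 and 5 had a region, with an SE at *RARB* in UW228 (rank 228). Of 6 retinoic acid enzymes 3, 6, 4 and 6 had one, with an SE at *ALDH1A2* in D425 (rank 79) and *ALDH1A1* in UW228 (rank 328), which both make retinoic acid. Of 11 genes of a list of Polycomb subunits, which silence the clusters, and *CTCF*, which partitions them, 11, 10, 8 and 7 had one, with an SE at *BMI1* in HD-MB03 (rank 64). Of 21 noncoding genes inside the clusters 6, 17, 6 and 14 had one, and *HOXD-AS2* had the SE of MB002.

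Genes listed from the surroundings of the clusters were read the same way. Of 15 that matched 10, 12, 7 and 11 had a region, near the shares of all protein-coding genes of 70.7%, 72.9%, 58.2% and 61.8%, and 3, 2, 1 and 0 had an SE, beside 3.35%, 4.34%, 3.11% and 4.99%. *EVX2* shared the HOXD regions, at rank 158 in MB002, 3589 in D425 and 6214 in UW228. *CBX5* and *HNRNPA1*, on the side of cluster C but not its direct neighbours, shared an SE in MB002 (rank 235) and in D425 (rank 326). The MB002 SE began at chr12:54253150, and the last member of cluster C ended at position 54056030. Their best region had rank 1551 in UW228 and 5469 in HD-MB03. *SNX10*, which lies beyond *SKAP2* from cluster A and is not its direct neighbour, had an SE in HD-MB03 (rank 245).

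The line labels were read against marker lists, whose counts stand beside shares of all protein-coding genes of 70.7%, 72.9%, 58.2% and 61.8% with a region and 3.35%, 4.34%, 3.11% and 4.99% with an SE in MB002, D425, HD-MB03 and UW228. Several counts lay near these shares, such as SHH markers in MB002 and neural markers in UW228. Of 10 genes of the midbrain and anterior hindbrain 5, 5, 5 and 4 had a region. *OTX2*, which marks that territory and G3-MB, had no region in UW228 and an SE in the G3-MB lines, at rank 3 for MB002 and D425 and at rank 5 for HD-MB03. The input at these *OTX2* regions was 35.2, 53.3 and 5.84 times the line median per bp, whereas over the 41 HOX regions it was 0.188 to 2.45 times. In UW228 *PAX8* of that list had an SE (rank 171). Of 7 G3-MB markers all had a region in the 3 G3-MB lines, with an SE at *MYC* and *CRX* in MB002 and D425 and at *IMPG2* in HD-MB03 beside *OTX2*, and 3 had one in UW228, none an SE. The input at the best *MYC* region was 23.8 times the line median per bp in MB002, 62.7 times in D425 and 153 times in HD-MB03. Of 8 SHH markers 6, 4, 6 and 7 had a region. SEs of that list were at *PTCH1* and *GLI1* in HD-MB03 (ranks 61 and 203), UW228 had none, and *ATOH1* had no region in any line. Of 6 neural markers 6, 3, 5 and 4 had a region, with an SE at *NEUROD1* in MB002 and HD-MB03 (ranks 253 and 48). Of 9 mesenchymal markers 8, 7, 5 and 9 had one, with SEs at *COL1A2*, *PRRX1* and *COL3A1* in UW228 (ranks 75, 202 and 546). The part of these differences between the lines in the HOX regions was not tested.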

How the data were processed

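H3K27Ac ChIP-seq and input libraries of 4 MB lines, 1 of each per line, were available as tables of stitched enhancers. The authors aligned reads to GRCh38 with Bowtie2 2.3.0, handled files with SAMtools 1.9, removed multi-mapping and duplicate reads, called peaks over input with MACS2 2.2.6, and stitched and ranked them with ROSE after leaving out promoter flanks of 2.5 kb, per the methods and the submitters' processing notes. The deposited signal is in rpm/bp (reads per bp scaled to the mapped reads of the library) times length, with the input in its own column. Ranks, SE calls, peak numbers and peak lengths were also used as deposited.

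The input was subtracted here, floored at 0. Gene positions came from GENCODE 44, promoters and microRNAs from RefSeq (GRCh38.p14). The build was the same, and 1 to 4 regions per line lay on contigs without sequence here. Python 3.11.15, numpy 2.4.6, pandas 2.3.3, scipy 1.17.1 and matplotlib 3.10.9 were used, and the assignment was tested on simulated data. All members were accounted for; values were given for SE-associated members, those nearest an SE and those with no region, and for list genes with an SE. Members and lists were chosen with earlier results of these data known. 1 of 111 list symbols did not match. The result of 1 list gene is not reported here. Alternatives covered windows of 25 and 100 kb, gene bodies, start sites, input handling, ordering by mean signal, cutoffs, joining and RefSeq positions. Library depth is unknown, so no precision from counts could be given.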

Additional observations from a re-analysis of the deposited data

How the results depend on the processing

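No paired analysis was possible because each line had 1 library of each kind and no test was made. A value counts as unchanged here within 1.5 times of the reported one. Of the best ranks of clusters 35 stayed and 15 moved, of the cluster signals 42 stayed and 8 moved, of the numbers of regions 7 stayed and 3 moved, and the 20 summed lengths stayed. Members with a region stayed in 14 settings and moved in 6, and members with an SE stayed in 39 and moved in 5. These tallies do not measure robustness. Joining kept summed lengths and signals by construction, unless a region from outside was joined in. Cutting regions at 50 kb beyond the cluster changed the length of cluster B in UW228 alone, from 32535 to 26044 bp. Many of the settings for members with an SE compared 0 with 0.

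Members with a region fell to 8 in MB002 with a 25 kb window. With gene bodies alone they were 8 in UW228, 8 in D425, 3 in MB002 and 2 in HD-MB03, and without regions near member start sites 0 in HD-MB03. Members with an SE in MB002 were 4 with the 25 kb window and 0 on gene bodies. In UW228 they were 2 after division by a region's own relative input, and 2 after division by the input within 500 kb, both from the region beside *HOXB1*. In D425 they were 6 when regions were ordered by mean signal per bp.

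Ordered by mean signal per bp, the best ranks were 24219 (cluster C) and 43 (D) in MB002, 1847 (A), 1449 (C) and 302 (D) in D425, and 4866 (B), 866 (C) and 14382 (D) in UW228. Joining across 12.5 kb, chosen after seeing the data, gave rank 27 for cluster D of MB002 and 3000 for cluster C of UW228. After division by own input, D425 had a signal of 10602 and rank 2872 in cluster C, and 5013 and 6323 in D. UW228 had a signal of 155 in A, rank 509 in B, 26496 and rank 3065 in C, and 7352 and rank 4038 in D. Without subtraction the signal was 1674 in cluster C of MB002 and 503 in cluster A of UW228, where the input within 500 kb gave 172. The causes were not tested beyond the construction of each setting.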
